A study of Rattus norvegicus with 12 samples.

Results

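The enzymes that build fatty acids from acetyl-CoA and put double bonds into them were followed in the rat ovary, in RNA-seq libraries of 12 rats. The family was set by name: Acly, Acaca, Acacb, Fasn, Elovl6, Scd, Scd2, Fads2, Elovl5 and Fads1. All 10 genes had a row among the 19730 genes of the deposited table, and all 10 were among the 13430 genes tested, those whose mean FPKM (fragments mapped to a gene, scaled by its length and by the fragments of the library) was 1 or more. The rats were wild type Sprague Dawley females at postnatal week 15, with whole ovary as the tissue and 4 libraries per group, each from 1 rat. Control rats were untreated and ate standard food. PCOS rats received letrozole, an inhibitor of aromatase that blocks the conversion of androgens to estrogens, for 30 days together with a high-fat diet, and stand as a model of polycystic ovary syndrome (PCOS). PCOS-MV rats received the same letrozole and high-fat diet and then mogroside V (MV), a sweet triterpene glycoside of monk fruit, for a further 30 days. Rats of the last 2 groups had been kept for the study because their vaginal smears stayed in metestrus and diestrus. Letrozole and the diet therefore came together in both groups and cannot be told apart. The estrous stage at sampling, the diet after day 30 and a vehicle gavage for the other groups are not given in the sources used here.

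Fatty acid synthesis starts in the cytosol, where ATP citrate lyase (Acly) splits citrate to acetyl-CoA, acetyl-CoA carboxylase (Acaca, and Acacb at the mitochondrial surface) makes malonyl-CoA, and fatty acid synthase (Fasn) builds palmitate. Elovl6 lengthens palmitate to stearate, and the stearoyl-CoA desaturases (Scd, Scd2) set the double bond that makes oleate and palmitoleate. A separate branch starts from dietary linoleic and alpha-linolenic acid, in which Fads2 sets a double bond, Elovl5 adds carbons and Fads1 sets the next double bond to give arachidonic and eicosapentaenoic acid. Arachidonic acid is the substrate of prostaglandin synthesis, which takes part in ovulation and luteal regression, and steroid-producing cells of the ovary store cholesterol esterified to such acids.

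The summed FPKM of a library ranged from 339830 to 373758, with 17576 to 18247 genes above 0. Read numbers are not given, and by the spacing of low values, relative depth ran from 0.918 to 1.12, with Control replicate 1 as the reference. This estimate is rough, as only 3.02% to 4.63% of the low values compared with the reference lay at the ratio used. Markers of granulosa cells, luteal cells and oocytes were present in every library, with summed FPKM of 646 to 1640, 1745 to 7907 and 12.4 to 23.9. Of the other marker lists, 0 of 4 tested oocyte markers were called in PCOS against Control or in PCOS-MV against PCOS (limma, adjusted p under 0.05), with 0 and 2 at an unadjusted p under 0.05. Leukocyte markers were higher in PCOS than in Control in 1 of 4 and, in PCOS-MV against PCOS, higher in 1 and lower in 1. Endothelial markers were lower in 3 of 4 and higher in 1 in PCOS, and higher in 2 of 4 in PCOS-MV. These marker counts and those below are to be read beside the shares over all genes tested. In PCOS against Control, 11.9% were called higher and 15.6% lower. In PCOS-MV against PCOS, 14.3% were called higher and 11.4% lower. The epithelial marker Epcam stood at 32.3 FPKM in Control replicate 3 and at 0.891 to 2.90 in the other 11 libraries, and the summed oviduct list (Epcam, Tekt1 and Dnah5) at 42.7 there and at 2.60 to 5.57 elsewhere. Of the 2 oviduct markers tested by limma, 0 were called between PCOS and Control, with 0 at an unadjusted p under 0.05, and Epcam was lower in PCOS-MV than in PCOS.

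Between PCOS and Control, the genes of the polyunsaturated branch and the Scd gene moved and the chain-building enzymes were not called. Fads1, Fads2 and Elovl5 were higher in PCOS and Scd was lower, so that 4 of the 10 genes were called, where 27.4% of all genes tested were called (limma on log2(FPKM + 1), adjusted p under 0.05). The 3 higher genes stood beside a background of 11.9% of all genes called higher, and the 1 lower gene beside 15.6% called lower. Between PCOS-MV and PCOS, Fads1 and Fads2 were lower and 0 were higher, with backgrounds of 11.4% lower, 14.3% higher and 25.7% in both directions. At an unadjusted p under 0.05, 2 were higher (Scd and Scd2) and 2 lower, 4 of 10 beside 38.5% of all genes. In PCOS against Control that threshold gave the 4 called genes, beside 39.4%. Both comparisons use the same 4 PCOS libraries, so an unusual PCOS value enters each. Between PCOS-MV and Control, 0 of 10 were called by limma, 0 had an unadjusted p under 0.05, and the lowest exact permutation p was 0.171. In that comparison 0.00745% of all genes, 1 gene, were called, and 1142 genes (8.5%) had an unadjusted p under 0.05. For 0 of the 10 genes did the values of these groups not overlap, beside 2.81% of all genes higher, 2.29% lower and 5.1% in all. The median log2 fold change of the 10 genes was 0.0007 for PCOS against Control and -0.16 for PCOS-MV against PCOS, beside -0.03 and 0.03 over all genes tested.

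**Figure D1:**
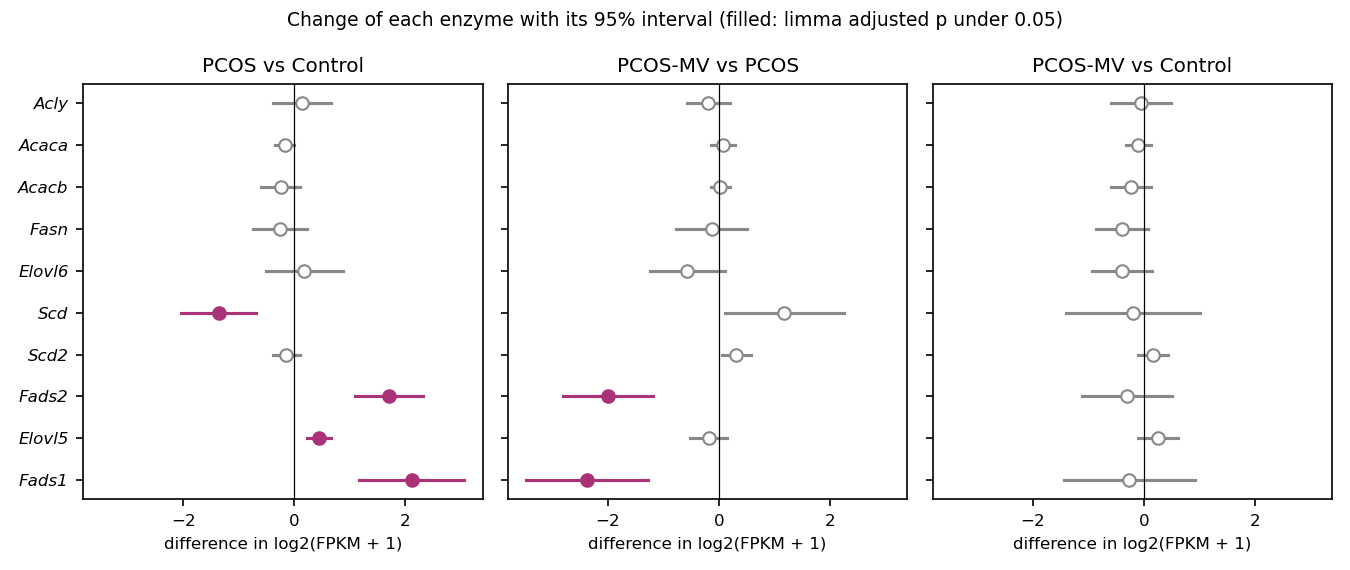
Log2 fold change on the log2(FPKM + 1) scale with its 95% confidence interval from limma (horizontal axis) for each of the 10 genes (vertical axis) in the 3 comparisons, 4 libraries against 4; filled points are called at an adjusted p under 0.05. Fads1 and Fads2 lie at 2.12 and 1.71 for PCOS against Control and at -2.38 and -2.0 for PCOS-MV against PCOS, and no point is filled for PCOS-MV against Control.

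In the polyunsaturated branch, Fads1 (ENSRNOG00000020480), the desaturase of the last step, had the largest log2 fold change of the 10 genes in PCOS against Control and in PCOS-MV against PCOS. Its FPKM was 73.7, 47.5, 23.6 and 26.1 in Control replicates 1 to 4, 283, 177, 94.5 and 175 in PCOS replicates 1 to 4, and 72.6, 30.9, 13.8 and 32.7 in PCOS-MV replicates 1 to 4. Every PCOS value lay above every value of the other groups, while the Control and PCOS-MV values overlapped. The group means were 42.7 ± 23.3, 182 ± 77.1 and 37.5 ± 24.9 FPKM (SD, n = 4). The PCOS mean was 4.27-fold that of Control, with a log2 fold change of 2.12 (SE 0.42, adjusted p = 0.00628 from limma). Leaving out any 1 of the 8 rats gave 1.87 to 2.42, and the call held each time. The PCOS-MV mean was 4.86-fold below that of PCOS, with a log2 fold change of -2.38 (SE 0.48, adjusted p = 0.00859 from limma). The difference between PCOS-MV and Control was -0.26 on the log2 scale, with a 95% interval of -1.44 to 0.92 that leaves room for a change of more than 2-fold downward.

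Fads2 (ENSRNOG00000020440) encodes the desaturase of the opening step, usually taken as the rate-limiting step of the branch. Its FPKM was 77.0, 63.1, 39.9 and 44.2 in Control replicates 1 to 4, 248, 203, 116 and 177 in PCOS replicates 1 to 4, and 89.9, 38.4, 29.0 and 37.0 in PCOS-MV replicates 1 to 4. As for Fads1, the 4 PCOS values stood above all others, and the highest of the rest was PCOS-MV replicate 1. The means were 56.0 ± 17.3, 186 ± 55.2 and 48.6 ± 27.9 FPKM (SD, n = 4). The log2 fold change was 1.71 for PCOS against Control (SE 0.27, adjusted p = 0.00212 from limma) and -2.0 for PCOS-MV against PCOS (SE 0.35, adjusted p = 0.00478 from limma), a 3.32-fold higher and then a 3.83-fold lower mean. Each call held with each rat left out. PCOS-MV and Control differed by -0.29 (95% interval -1.10 to 0.52).

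Elovl5 (ENSRNOG00000006331), the elongase between the 2 desaturases, had a smaller rise. Its FPKM was 141, 164, 129 and 158 in Control replicates 1 to 4, 209, 203, 183 and 212 in PCOS replicates 1 to 4, and 216, 181, 132 and 190.1 in PCOS-MV replicates 1 to 4. All 4 PCOS values were above all 4 Control values, and the PCOS-MV values spread over the range of both groups. The means were 148 ± 15.7, 202 ± 12.8 and 180 ± 35.2 FPKM (SD, n = 4). Elovl5 was 1.36-fold higher in PCOS than in Control, with a log2 fold change of 0.45 (SE 0.10, adjusted p = 0.00873 from limma), and was called with each rat left out. PCOS-MV against PCOS gave -0.18 (95% interval -0.51 to 0.14, adjusted p = 0.383 from limma), which did not pass the test. PCOS-MV against Control gave 0.26 (95% interval -0.09 to 0.62).

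**Figure D2:**
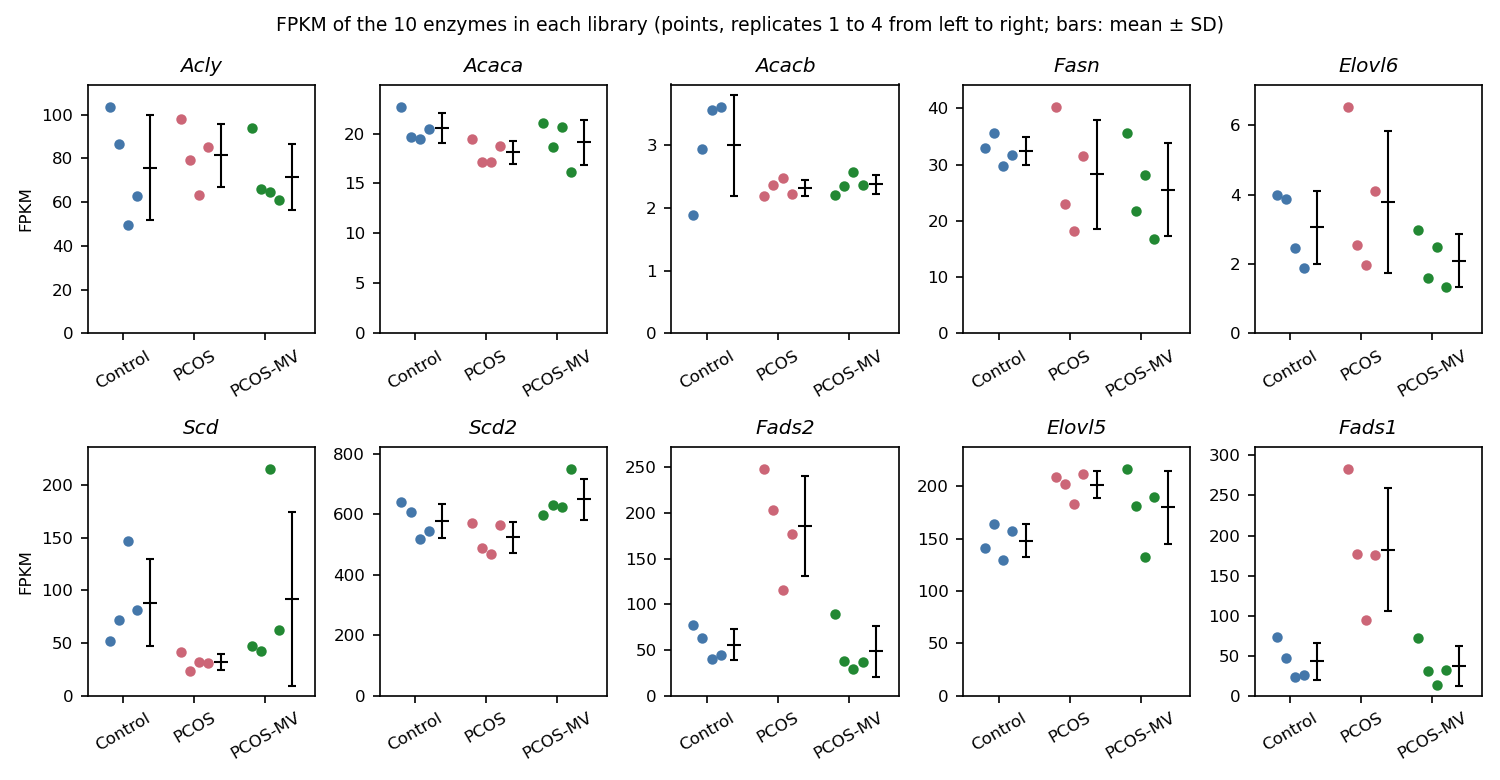
FPKM of each of the 10 genes in each of the 12 libraries (points, replicates 1 to 4 from left to right) by group, with the group mean and standard deviation as a bar beside them; each panel has its own linear vertical axis that starts at 0. The 4 PCOS points of Fads1 and Fads2 lie above all points of the other groups, and Scd in PCOS-MV replicate 3, at 215 FPKM, lies far above the other 3 libraries of its group.

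Most theca markers were higher in PCOS, as were Fads1 and Fads2. Granulosa markers went both ways and luteal markers were mostly lower. The part of these markers in the result was not tested. In whole-ovary RNA, a change in the number of cells of a type and a change in RNA per cell cannot be told apart. Of 5 theca markers, 3 were higher and 1 lower in PCOS than in Control, and 4 were lower in PCOS-MV than in PCOS. Their summed FPKM was 113 to 152 in Control, 1695 to 3182 in PCOS and 107 to 192 in PCOS-MV, so PCOS stood above both other groups, as it did for Fads1 and Fads2. Cyp17a1, the androgen-making enzyme of theca cells, ranged from 17.0 to 63.6, from 655 to 1866 and from 1.57 to 88.1 FPKM in the 3 groups. Its mean of 1190 FPKM and that of another listed marker, at 1032 FPKM, made up most of the mean theca sum of 2351 in PCOS. Among the less abundant markers, Nr2f2 rose from 68.5 ± 6.68 FPKM in Control to 110 ± 7.34 in PCOS (SD, n = 4). Ptch1 was the lower marker (log2 fold change -0.43), and Gli1 was not called (0.39). Of 9 granulosa markers, 4 were higher in PCOS than in Control and 3 were lower in PCOS-MV than in PCOS, with sums of 728 to 1005, 1135 to 1640 and 646 to 1194, which Inha and Inhba dominate. At an unadjusted p under 0.05, 4 granulosa markers were higher and 3 lower in PCOS than in Control, the lower ones being Amh (-0.81), Nr5a2 (-0.77) and Inhbb (-0.60), which did not pass the adjusted threshold. Of 6 luteal markers, 4 were lower and 2 higher in PCOS than in Control, and 2 were higher and 1 lower in PCOS-MV than in PCOS. Their sums were 4197 to 7907 in Control, 1745 to 3362 in PCOS and 2915 to 6831 in PCOS-MV. The 4 markers lower in PCOS made up most of these sums, and the 2 higher ones little. No listed theca, granulosa or luteal marker was at 0 in any library.

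Across the 12 libraries, Fads1 and Fads2 were each other's nearest gene, with a Pearson r of 0.985 on log2(FPKM + 1). Each had rank 1 for the other among the tested genes that have a symbol. The libraries of the 3 groups supply much of this likeness, so it is a description with no test. Within Control and within PCOS the 4 rats took the same order for both genes, highest in replicate 1 and lowest in replicate 3. The next nearest genes were Tmem184a (r = 0.973) and Slc41a1 (r = 0.968) for Fads1, and Lins1 (r = 0.972) and Pla2g16 (r = 0.970) for Fads2. Fads1 made up 41.5 ± 5.62% of the summed FPKM of both genes in Control, 48.6 ± 3.68% in PCOS and 42.1 ± 6.69% in PCOS-MV (SD, n = 4). These shares overlapped between all groups.

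**Figure D3:**
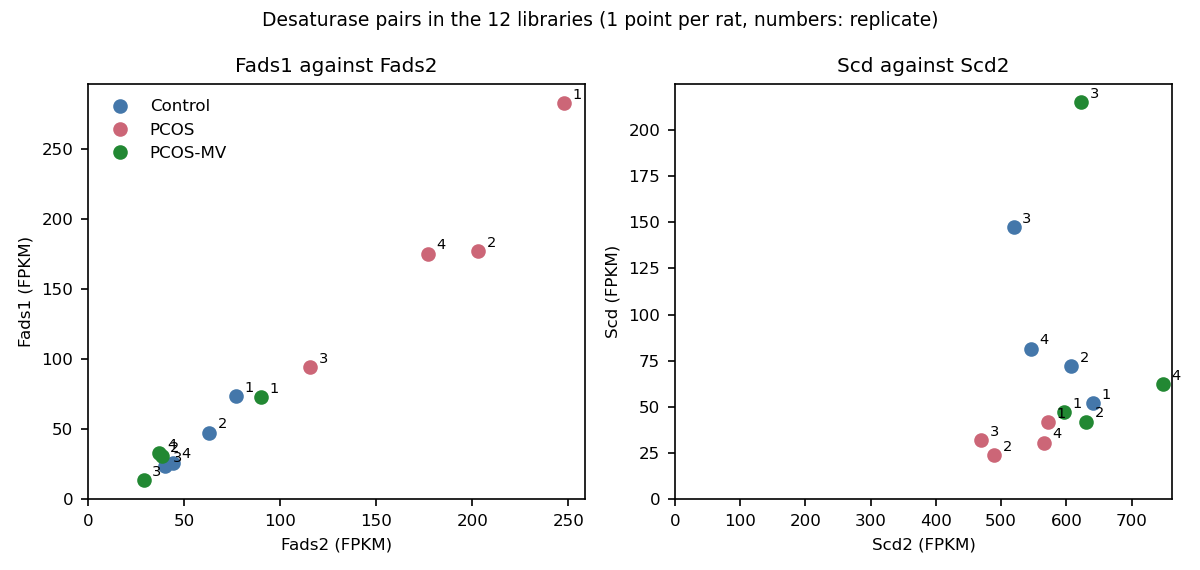
Left, FPKM of Fads1 (vertical) against Fads2 (horizontal), and right, FPKM of Scd (vertical) against Scd2 (horizontal), on linear axes, with 1 numbered point per library and a colour per group. The Fads points of PCOS lie apart at high values of both genes. The Scd2 values span 469.8 to 748 FPKM, while those of Scd span 23.7 to 215.

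Both Fads genes lie on chromosome 1 in the coordinates of the deposited file, whose build is not named: Fads2 from 226114413 to 226152524 on the minus strand and Fads1 from 226234074 to 226249138 on the plus strand, with 81549 bases between them. The neighbourhood was chosen after these positions and values were seen. Within 100 kb of either gene the table held 11 genes, of which 9 were tested. Of these, 6 were higher in PCOS than in Control, where 11.9% of all genes tested were called higher. In PCOS-MV against PCOS, 5 were lower, where 11.4% of all genes were. Both counts include Fads1 and Fads2, which set the window, and the overlapping genes Fth1 and Best1. The third desaturase-like gene of the cluster, Fads3, lay beside Fads2 and had means of 6.66 ± 1.32, 6.43 ± 1.19 and 7.40 ± 2.27 FPKM (SD, n = 4). Its log2 fold changes were -0.04 (adjusted p = 0.864) and 0.14 (adjusted p = 0.661 from limma), so it did not pass in either. Myrf, a membrane-bound transcription factor of myelin-forming cells, was higher in PCOS, at 13.7 ± 4.43 against 3.79 ± 1.08 FPKM, with a log2 fold change of 1.59 (SE 0.24, adjusted p = 0.00156 from limma). In PCOS-MV it was at 4.89 ± 1.62 FPKM (-1.30 against PCOS, adjusted p = 0.0078 from limma). Fth1, the ferritin heavy chain, was at 1317 ± 47.0, 2645 ± 228 and 1356 ± 110 FPKM (SD, n = 4), with log2 fold changes of 1.0 (adjusted p = 0.000247) and -0.96 (adjusted p = 0.00124 from limma). Best1 was called in the same directions as Fth1. It overlaps Fth1 on the other strand, and without strand in the counting their reads cannot be told apart; the strand setting is not given in the sources used here. Fen1, which lies on the far side of Fads1, and Rab3il1 were not called in either comparison.

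**Figure D4:**
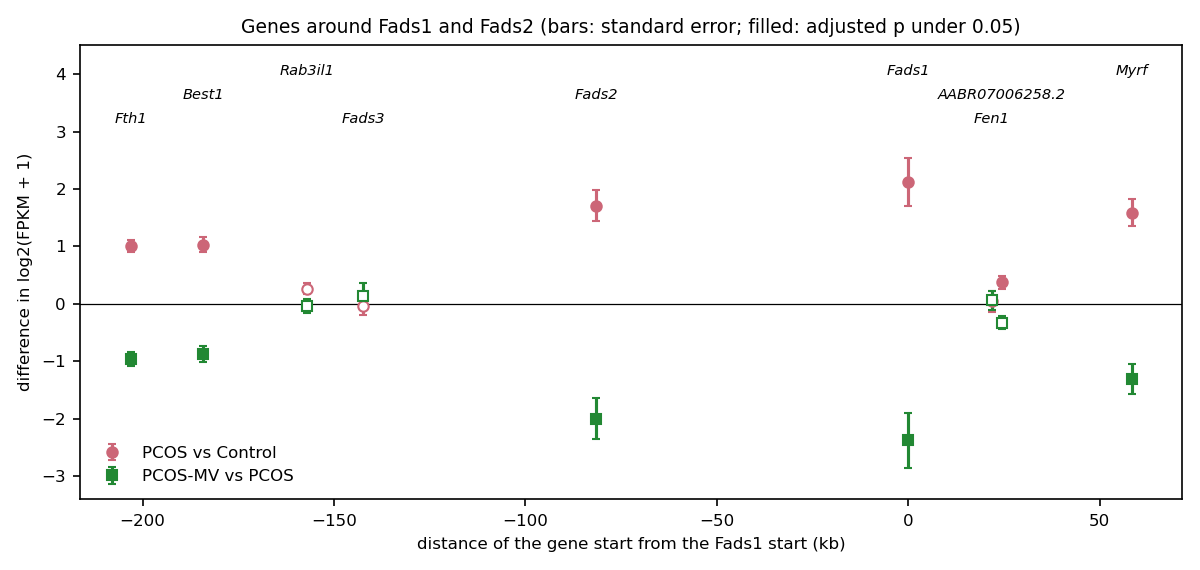
Log2 fold change with its standard error (vertical axis) of the 9 tested genes within 100 kb of Fads1 or Fads2, by the distance of each gene's start from the start of Fads1 in kb (horizontal axis), for PCOS against Control and PCOS-MV against PCOS. Fads1, Fads2, Myrf, Fth1 and Best1 lie above 0 in the former and below 0 in the latter, and Fads3, between Rab3il1 and Fads2, lies at -0.04 and 0.14; filled points are called at an adjusted p under 0.05.

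The promoters of the 3 genes of this branch are shown because all 3 were higher in PCOS, as sequences of 300 bases (250 before to 50 after the start) from RefSeq on GRCr8, printed 5′ to 3′ on the strand of the gene. Of the 10 genes, 7 had a promoter in that table. Capitals mark matches, on either strand, to a CCAAT box (CCAAT), a GC box (GGGCGG) or an E-box (CACGTG), which stood in 37.5%, 33.1% and 6.42% of all 33469 promoters of the table.
Fads2 (chr1:216171984-216172283, minus strand): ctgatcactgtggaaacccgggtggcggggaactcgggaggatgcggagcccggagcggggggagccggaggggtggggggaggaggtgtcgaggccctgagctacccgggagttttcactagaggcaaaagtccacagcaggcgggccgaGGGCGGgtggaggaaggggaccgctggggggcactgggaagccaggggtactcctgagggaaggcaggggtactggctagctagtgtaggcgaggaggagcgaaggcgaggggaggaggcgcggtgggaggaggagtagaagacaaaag
Elovl5 (chr8:87670914-87671213, plus strand): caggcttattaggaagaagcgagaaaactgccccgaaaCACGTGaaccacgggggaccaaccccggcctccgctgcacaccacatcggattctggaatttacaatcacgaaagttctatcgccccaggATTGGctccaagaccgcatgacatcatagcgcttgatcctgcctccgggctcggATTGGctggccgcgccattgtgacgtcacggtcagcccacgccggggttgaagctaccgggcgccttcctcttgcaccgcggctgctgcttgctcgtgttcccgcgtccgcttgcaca
Fads1 (chr1:216252442-216252741, plus strand): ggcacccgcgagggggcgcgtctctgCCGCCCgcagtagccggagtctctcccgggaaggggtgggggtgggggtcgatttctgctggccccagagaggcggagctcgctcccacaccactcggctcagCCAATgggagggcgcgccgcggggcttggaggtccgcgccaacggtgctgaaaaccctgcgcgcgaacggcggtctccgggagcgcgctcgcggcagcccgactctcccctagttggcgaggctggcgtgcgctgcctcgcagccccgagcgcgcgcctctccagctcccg
The Fads1 window held 1 CCAAT box and 1 GC box, the Fads2 window 1 GC box, and the Elovl5 window 2 CCAAT boxes and 1 E-box. An SREBP element (TCACNCCAC), the site of the sterol-sensing factors that drive lipid synthesis genes, stood in 1.12% of all promoters and in none of the 7 windows, and neither did an LXR element (AGGTCA repeated after 4 bases, 0.00598% of all promoters). A match here is a description of letters, and only the letters given were searched. No match therefore says nothing of variant sites inside the window or of any site outside it.

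Scd (ENSRNOG00000013552) was lower in PCOS, where the Fads genes were higher. Its FPKM was 52.0, 72.1, 147 and 81.6 in Control replicates 1 to 4, 41.7, 23.7, 31.8 and 30.6 in PCOS replicates 1 to 4, and 47.3, 42.0, 215 and 62.2 in PCOS-MV replicates 1 to 4. Every PCOS value was below every value of both other groups, and the PCOS-MV mean was set by replicate 3. The means were 88.3 ± 41.3, 31.9 ± 7.42 and 91.6 ± 82.7 FPKM (SD, n = 4). The PCOS mean was 2.76-fold below that of Control, with a log2 fold change of -1.36 (SE 0.30, adjusted p = 0.00994 from limma), and the call held with each rat left out at -1.58 to -1.08. PCOS-MV against PCOS gave 1.17 (SE 0.47, 95% interval 0.10 to 2.25, adjusted p = 0.102 from limma) and was not called, although the values did not overlap (exact two-sided permutation p = 0.0286, the smallest that 4 against 4 can give). Without PCOS-MV replicate 3 the log2 fold change was 0.65 and passed, at an adjusted p of 0.0482 from limma. PCOS-MV against Control gave -0.19 (95% interval -1.39 to 1.02).

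Scd2 (ENSRNOG00000046005), the isoform that had the highest FPKM of the 10 genes in every library, was not called. Its FPKM was 641, 607, 519 and 545 in Control replicates 1 to 4, 572, 489, 469.8 and 565 in PCOS replicates 1 to 4, and 597, 630.1, 622 and 748 in PCOS-MV replicates 1 to 4. Control and PCOS values overlapped, and all 4 PCOS-MV values lay above all 4 PCOS values. The means were 578 ± 55.8, 524 ± 51.9 and 649 ± 67.3 FPKM (SD, n = 4). The log2 fold change was -0.14 for PCOS against Control (95% interval -0.39 to 0.10, adjusted p = 0.366 from limma) and 0.31 for PCOS-MV against PCOS (95% interval 0.05 to 0.57, adjusted p = 0.0801 from limma), and neither was called. Scd made up 13.3 ± 6.28% of the summed FPKM of both genes in Control, 5.72 ± 1.02% in PCOS and 11.7 ± 9.32% in PCOS-MV (SD, n = 4). In PCOS-MV the share was 7.34%, 6.25%, 25.7% and 7.67% in replicates 1 to 4, so only replicate 3 stood above the Control range of 7.51% to 22.1%. The sequences of the pair are similar, and how reads that fit both were counted is not given in the sources used here.

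The pair lies on chromosome 1 in the deposited coordinates, Scd2 from 264059374 to 264072433 on the plus strand and Scd from 264160129 to 264172729 on the minus strand, 87695 bases apart, with Scd4 between them at 0 to 0.424 FPKM. Within 100 kb of either gene, 3 of 6 genes were tested. Of these, 2 were lower in PCOS than in Control, where 15.6% of all genes tested were called lower. They were LOC681458 and Scd, which is itself of the pair that set the window. LOC681458 was at 7.46 ± 5.74, 1.28 ± 0.414 and 6.59 ± 4.01 FPKM (SD, n = 4), with log2 fold changes of -1.59 (adjusted p = 0.0487) and 1.63 (adjusted p = 0.00634 from limma). The promoters of the pair are shown, in the build, length and marking used for the Fads genes, because Scd was called and Scd2 was not; the difference between the 2 genes was not tested.
Scd (chr1:253231682-253231981, minus strand): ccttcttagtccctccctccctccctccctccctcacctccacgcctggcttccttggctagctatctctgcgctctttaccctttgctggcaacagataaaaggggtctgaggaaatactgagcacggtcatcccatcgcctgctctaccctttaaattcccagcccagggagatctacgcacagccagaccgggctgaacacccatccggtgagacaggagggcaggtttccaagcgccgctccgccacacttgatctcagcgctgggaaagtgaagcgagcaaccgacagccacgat
Scd2 (chr1:253118127-253118426, plus strand): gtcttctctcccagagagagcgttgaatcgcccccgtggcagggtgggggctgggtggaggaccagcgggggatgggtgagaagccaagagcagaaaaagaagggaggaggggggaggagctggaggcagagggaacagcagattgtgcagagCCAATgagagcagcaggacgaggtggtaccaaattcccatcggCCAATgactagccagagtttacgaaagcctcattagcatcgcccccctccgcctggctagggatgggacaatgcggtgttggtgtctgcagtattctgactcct
The Scd2 window held 2 CCAAT boxes, while the Scd window held no match to any of the 5 motifs searched.

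Fat-cell markers were also lower where Scd was lower, and their part in the result was not tested. Scd is abundant in white fat as well as in other lipid-making cells. Of 10 adipocyte markers 6 were tested, 5 were lower in PCOS than in Control, and 2 (Fabp4 and Lipe, which are not restricted to fat cells) were higher in PCOS-MV than in PCOS. The summed list was 57.0 to 129 FPKM in Control, 28.9 to 38.4 in PCOS and 39.0 to 67.4 in PCOS-MV. Adipoq, the fat-cell hormone adiponectin, was at 15.3, 3.68, 26.0 and 7.93 FPKM in Control replicates 1 to 4, at 0.654 to 2.95 in PCOS and at 0.845 to 1.70 in PCOS-MV. Its highest level was in Control replicate 3, the Control library with the highest Scd. Its next highest level was in Control replicate 1, the Control library with the lowest Scd (52.0 FPKM) and the highest summed list (129 FPKM). PCOS-MV replicate 3, with the highest Scd of all, had the highest summed list of its group (67.4 FPKM). Adipoq was at 1.70 FPKM there and Fabp4 at 29.3. PCOS-MV replicate 2, with the lowest Scd of that group, had a nearly equal sum (66.9 FPKM) and Fabp4 at 33.8. Plin1 (up to 0.161), Cidec (up to 0.195) and Lep (up to 0.0361) were near 0 in all 4 PCOS-MV libraries. Fabp4 (3.63 to 33.8 FPKM) and Lipe (15.0 to 19.7 FPKM) were not. In PCOS, Cidec, Lep and Retn were listed at 0 in at least 1 library.

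The enzymes that make palmitate were not called in any comparison. Acly (ENSRNOG00000016924) ranged from 49.7 to 103 FPKM in Control, from 63.3 to 98.1 in PCOS and from 61.1 to 93.8 in PCOS-MV, and the 3 groups overlapped throughout. Its log2 fold changes were 0.14 (95% interval -0.38 to 0.66) for PCOS against Control and -0.19 (95% interval -0.57 to 0.19) for PCOS-MV against PCOS. Fasn (ENSRNOG00000045636) was at 32.9, 35.6, 29.7 and 31.8 FPKM in Control replicates 1 to 4, 40.2, 23.0, 18.3 and 31.6 in PCOS replicates 1 to 4, and 35.7, 21.8, 28.2 and 16.7 in PCOS-MV replicates 1 to 4. The mean was 32.5 ± 2.47, 28.3 ± 9.69 and 25.6 ± 8.20 FPKM (SD, n = 4), and the 2 letrozole groups spread around the narrow Control range. The log2 fold changes of Fasn were -0.25 (95% interval -0.74 to 0.23) and -0.13 (95% interval -0.77 to 0.51), and PCOS-MV against Control gave -0.38 (95% interval -0.85 to 0.09).

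Of the 2 carboxylases, Acaca (ENSRNOG00000034013) was the main form at 87.2% of the summed FPKM of the pair in Control, 88.6% in PCOS and 88.9% in PCOS-MV. Its FPKM was 22.6, 19.6, 19.5 and 20.4 in Control replicates 1 to 4, 19.4, 17.2, 17.2 and 18.7 in PCOS replicates 1 to 4, and 21.0, 18.7, 20.7 and 16.2 in PCOS-MV replicates 1 to 4. All PCOS values were below all Control values, with the highest PCOS and the lowest Control value nearly equal (exact two-sided permutation p = 0.0286), with a log2 fold change of -0.17 (95% interval -0.34 to 0.001, adjusted p = 0.13 from limma), which was not called. Counting such separation, 3 of the 10 genes were higher and 2 lower in PCOS without overlap, where 13.8% and 17.2% of all genes tested (31% in all) were, and in PCOS-MV against PCOS 2 were higher and 2 lower, where 16.7% and 13.3% (30% in all) were. Acacb (ENSRNOG00000000658) was at 1.88 to 3.60 FPKM in Control, 2.19 to 2.48 in PCOS and 2.21 to 2.57 in PCOS-MV, with the widest spread in Control. Its log2 fold change of -0.25 (95% interval -0.60 to 0.11, adjusted p = 0.271 from limma) became -0.40 without Control replicate 1 and then passed, at an adjusted p of 0.0235 from limma.

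Elovl6 (ENSRNOG00000010468) was low, at 1.89 to 3.98 FPKM in Control, 1.96 to 6.53 in PCOS and 1.33 to 2.98 in PCOS-MV. Its log2 fold changes were 0.18 (95% interval -0.51 to 0.88) for PCOS against Control and -0.57 (95% interval -1.25 to 0.11, adjusted p = 0.197 from limma) for PCOS-MV against PCOS, and the latter interval holds a 2-fold lower level. On the FPKM scale, which is per length, the order of mean levels in Control ran from Scd2 (578) through Elovl5 (148), Scd (88.3), Acly (75.6), Fads2 (56.0), Fads1 (42.7), Fasn (32.5) and Acaca (20.5) to Elovl6 (3.06) and Acacb (3.00). From Elovl5 down to Fasn the Control values of each gene overlapped those of the next, as did those of Elovl6 and Acacb, while Scd2, Fasn and Acaca stood clear of the gene below. In PCOS, Fads2 and Fads1 ranked behind Elovl5 at 186 and 182 FPKM, and Scd at 31.9 ranked beside Fasn at 28.3 with overlapping values. In PCOS-MV the order of the top 8 genes was that of Control, but the place of Scd rested on replicate 3, without which its mean was 50.5 FPKM, below Acly (73.6) and Fads2 (55.1).

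The rats of a group differed along several of these genes at once. PCOS replicate 1 had the highest value of its group for 8 of the 10 genes and PCOS replicate 3 the lowest for 8, while over all genes tested replicate 1 was highest for 43.2% and replicate 3 lowest for 39.8%. In Control, replicate 1 was highest for 6 (26.7% of all genes) and replicate 3 lowest for 7 (31.2%), with Scd the gene for which replicate 3 was highest. In PCOS-MV, replicate 1 was highest for 7 (25.4%). The 10 genes of a library share its RNA, so these counts are not independent and are a description.

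Around the 10 enzymes, counts of 5 further lists are given, to be read beside the 11.9% of all genes called higher and 15.6% called lower in PCOS against Control, and the 14.3% and 11.4% in PCOS-MV against PCOS. Of 9 genes for citrate, acetyl-CoA and NADPH supply and mitochondrial fatty acid synthesis, 4 were lower and 0 higher in PCOS than in Control, and 2 were higher and 0 lower in PCOS-MV than in PCOS. Idh1, the cytosolic isocitrate dehydrogenase that yields NADPH, fell most, from 529 ± 145 to 103 ± 14.0 FPKM (SD, n = 4), a log2 fold change of -2.31 (SE 0.21, adjusted p = 0.000108 from limma). It stood at 437 ± 185 FPKM in PCOS-MV, a log2 fold change of 1.98 against PCOS (adjusted p = 0.0015 from limma). Olah, the thioesterase that releases medium-chain acids from Fasn, was at 4.49 ± 1.68, 1.65 ± 0.399 and 8.53 ± 7.63 FPKM (SD, n = 4), and was called only between PCOS and Control (-1.02, adjusted p = 0.0079 from limma). The other 2 lower genes, Oxsm (-0.44) and Mcat (-0.24), act in the mitochondrial pathway.

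Among 13 tested genes of other elongation and desaturation steps, 2 were higher and 1 lower in PCOS than in Control, and 1 was higher and 1 lower in PCOS-MV than in PCOS. Cyb5r3, a reductase that passes electrons to the desaturases through cytochrome b5, was at 29.0 ± 1.92 FPKM in Control, 42.8 ± 3.47 in PCOS and 40.3 ± 10.03 in PCOS-MV (SD, n = 4), with a log2 fold change of 0.55 in PCOS (SE 0.08, adjusted p = 0.00159 from limma). Hacd2, the dehydratase of the elongation cycle, was higher (log2 fold change 0.58), and Hsd17b12, its ketoreductase, was lower (-0.37). In PCOS-MV against PCOS, Elovl1, an elongase of saturated very long chains, was higher (0.60) and Fads6 was lower (-0.59).

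Of 19 regulators of lipid synthesis, 8 were lower and 0 higher in PCOS than in Control, and 5 were higher and 0 lower in PCOS-MV than in PCOS. The SREBP genes themselves were not called: Srebf1 was at 14.7 ± 2.08, 13.9 ± 1.70 and 14.5 ± 2.63 FPKM and Srebf2 at 55.0 ± 10.9, 56.2 ± 10.7 and 51.3 ± 8.98 FPKM (SD, n = 4). Their log2 fold changes in PCOS against Control were -0.07 (SE 0.12) and 0.03 (SE 0.18). Scap, the escort that carries SREBP to the Golgi, was at 72.2 ± 8.55, 32.2 ± 2.12 and 65.7 ± 15.4 FPKM (SD, n = 4), with log2 fold changes of -1.14 (adjusted p = 8.14e-05) and 0.98 (adjusted p = 0.00284 from limma). Insig1, the retention factor that SREBP itself induces, was not called, at 90.4 ± 27.2, 61.7 ± 45.0 and 98.8 ± 75.3 FPKM (SD, n = 4). Nr1h3, which encodes LXR alpha, was at 5.03 ± 0.228, 5.52 ± 0.535 and 9.43 ± 2.90 FPKM, and its log2 fold change of 0.63 in PCOS-MV against PCOS missed the threshold (adjusted p = 0.062 from limma). Mlycd, which removes malonyl-CoA, was lower in PCOS (-0.66, adjusted p = 0.00139) and higher in PCOS-MV (0.51, adjusted p = 0.00524 from limma). Mlx (-0.37) and Prkaa1, a catalytic subunit of AMPK (-0.25), were lower in PCOS, and Prkaa1 (0.28) and Prkag2 (0.87) were higher in PCOS-MV. Thrsp, a partner of lipogenesis in fat and liver, was lower in PCOS (-1.94, adjusted p = 0.0367 from limma), but its Control range of 0.795 to 13.9 FPKM was topped by replicate 3, and it was at 0 to 0.749 in PCOS and 0.0219 to 0.209 in PCOS-MV. Mid1ip1, its relative, was not called, with 35.8 ± 8.52, 46.3 ± 7.21 and 40.0 ± 28.4 FPKM (SD, n = 4).

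Genes that place fatty acids into glycerolipids were mixed in PCOS, with 2 of 15 higher and 4 lower, and mostly higher where they moved in PCOS-MV, with 8 higher and 1 lower. Gpam, the mitochondrial glycerol-3-phosphate acyltransferase, went with the Fads genes, at 25.7 ± 2.62, 53.4 ± 5.70 and 35.1 ± 4.32 FPKM (SD, n = 4). Its log2 fold changes were 1.02 (adjusted p = 0.000168) and -0.59 (adjusted p = 0.00536 from limma). Gpat3, which catalyses the same step in the endoplasmic reticulum, went the other way, at 4.33 ± 0.788, 1.28 ± 0.294 and 3.69 ± 1.26 FPKM (SD, n = 4), with log2 fold changes of -1.22 (adjusted p = 0.000441) and 1.01 (adjusted p = 0.00681 from limma). Lpin3, a phosphatidate phosphatase, was lower in PCOS (log2 fold change -0.85) and higher in PCOS-MV (1.09), Agpat5 was lower in PCOS (-0.63), and Agpat3 had a log2 fold change of 0.44 in PCOS-MV against PCOS.

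Cholesterol synthesis, the neighbouring SREBP-controlled pathway, was lower in PCOS in 4 of 19 genes and higher in 0, and in PCOS-MV against PCOS 2 were higher and 0 lower. These shares, 21.1% and 10.5%, stood near the 15.6% of all genes called lower in PCOS and the 14.3% called higher in PCOS-MV. Its median log2 fold change was -0.76 in PCOS against Control, beside -0.03 over all genes tested. Among the lower genes were Dhcr7 (213 ± 66.7 to 88.1 ± 24.8 FPKM), Idi1 (105 ± 28.9 to 38.0 ± 23.5) and Msmo1 (182 ± 94.2 to 58.3 ± 38.0; SD, n = 4). Dhcr7 and Idi1 were the 2 higher in PCOS-MV, with log2 fold changes of 1.03 and 1.36. In PCOS-MV against Control, 0 of the 75 tested genes of the supply, elongation, regulator, glycerolipid and cholesterol lists were called by limma, and 7 were higher and 2 lower at an unadjusted p under 0.05.

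**Figure D5:**
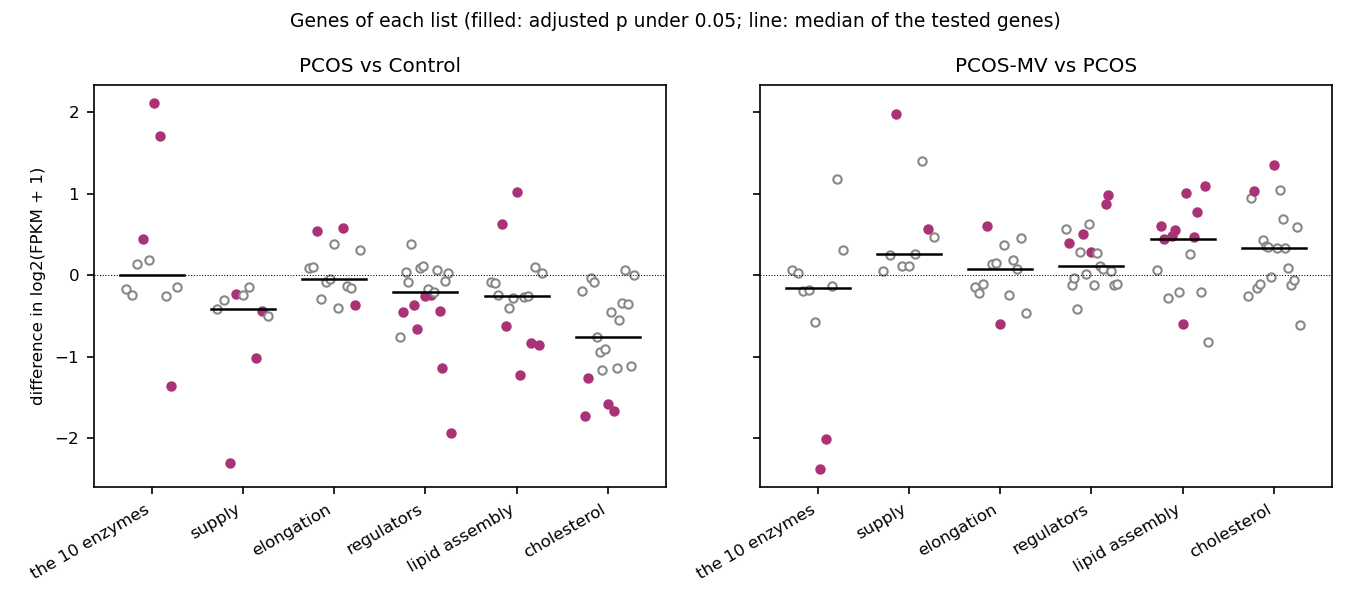
Log2 fold change (vertical axis, log2(FPKM + 1) scale) of each tested gene of the 10 enzymes and of the 5 surrounding lists (horizontal axis), for PCOS against Control and PCOS-MV against PCOS; filled points are called at an adjusted p under 0.05 and a line marks each list's median. The cholesterol list lies mostly below 0 in PCOS, with a median of -0.76 and 4 of 19 genes called, while the 10 enzymes lie on both sides with a median of 0.0007.

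The genes nearest to the remaining members by Pearson r of log2(FPKM + 1) over the 12 libraries were named by rank. Acly lay nearest to Acat2 (r = 0.979), which makes acetoacetyl-CoA for cholesterol synthesis, then Bdh1 (r = 0.973) and Ginm1 (r = 0.946). Acaca lay nearest to Sqle (r = 0.914) and Msmo1 (r = 0.911), both of cholesterol synthesis, and Cpox (r = 0.903) of heme synthesis. Scd lay nearest to Serpinb6a (r = 0.968), Acsl3 (r = 0.967), an acyl-CoA synthetase, and Ppp1r16b (r = 0.962). Scd2 lay nearest to Kif1b (r = 0.945), AABR07049994.1 and Cops7a. Fasn lay nearest to Myo19 (r = 0.936), Dido1 and Kpna4. Elovl5 lay nearest to Lrp1 (r = 0.927), Tcf3 and Plxna3, Elovl6 to LOC102549542 (r = 0.935), Carnmt1 and Cyb5b, and Acacb to Hace1 (r = 0.950), AABR07006089.1 and Wrnip1. Among the 10 genes, Fasn ranked 50 of the tested genes with a symbol for Elovl6 (r = 0.802). Scd had negative r with Fads1 (-0.82), Fads2 (-0.77) and Elovl5 (-0.81). Group differences and shared libraries enter every one of these values.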

How the data were processed

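RNA of whole ovaries was sequenced in 12 libraries, 1 per rat, and groups were taken from the sample labels. The authors deposited FPKM per gene, repeated on each transcript line, and 1 line per gene was kept. According to the paper, reads were aligned with HISAT2 2.0.5 and counted with featureCounts, whereas the submitters' processing notes name STAR 2.5.1b and HTSeq 0.6.0. The genome build, the strand setting and the handling of reads with several matches are not given in the sources used here. The file also holds group means and the fold changes and p-values of the authors' own comparisons with DESeq2, which were not used.

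Groups were compared in pairs with limma 3.58.1 (trend, R 4.3.3) on log2(FPKM + 1) over 13430 genes (mean FPKM of 1 or more), with Benjamini-Hochberg adjustment over all of them and a threshold of 0.05. Fold changes on this scale understate those of low genes. The test was checked on simulated data. Each enzyme was given an exact two-sided permutation test as well. Values of FPKM give no read numbers, so depth is unknown. P-values set the difference between groups against the spread between rats. The paper's methods give 3 replicates per condition for its own test, and 4 libraries per group were used here. Tables and plots were made with Python 3.11.15, pandas 2.3.3 and matplotlib 3.10.9.

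The 10 genes, the gene lists and the tests were chosen with earlier results of these data known. Lists covered supply, elongation, regulators, glycerolipid assembly, cholesterol synthesis and markers of adipocytes, luteal, granulosa and theca cells, oocytes, leukocytes, endothelium and oviduct. Of their names, 7 had no row in the table. The text names all 10 genes, the 3 nearest genes of each enzyme, and 8 fixed regulators and 5 fat-cell markers where present. Of each of the 5 lipid lists, up to 4 called genes per comparison are named, by lowest adjusted p. Of the cell type marker lists, only some genes are named. Genes beside the Fads and Scd pairs, Epcam, Lipe, Retn, Amh, Nr5a2 and Inhbb were added after their values were seen. Alternatives covered the pseudocount, the filter, the scaling, a joint model of the 12 libraries, a replicate block, a threshold of 2-fold and each library left out. Proteins of the enzymes were not analysed here. A gene that the naming rule selects is not reported here.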

Additional observations from a re-analysis of the deposited data

Results flagged for a closer look

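In groups of 4 rats, a value was marked when its gap to the nearest other value took up more of the group's range than Dixon's 95% criterion allows, which chance gives in about 1 of 20 groups. Of 39 groups of values examined, 5 were marked, all in PCOS-MV. Acly in PCOS-MV replicate 1 was at 93.8 FPKM, with the other 3 libraries at 61.1 to 65.8. Fads2 in the same library was at 89.9 FPKM, with the others at 29.0 to 38.4. Scd in PCOS-MV replicate 3 was at 215 FPKM, with the others at 42.0 to 62.2. The share of Scd in the sum of Scd and Scd2 was 25.7% in that library, with the others at 6.25% to 7.67%. The share of Fads1 in the sum of Fads1 and Fads2 was 32.2% in the same library, with the others at 44.5% to 46.9%. The values of one library are not independent of each other. Both libraries entered the comparisons as deposited.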

How the results depend on the processing

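For the 10 enzymes, the calls of Fads1, Fads2 and Scd in PCOS against Control and of Fads1 and Fads2 in PCOS-MV against PCOS held under every alternative run, and that of Elovl5 under all but the 2-fold threshold. With each library left out, 1 to 2 enzymes were called lower in PCOS than in Control (2 without Control replicate 1) and 0 to 1 higher in PCOS-MV than in PCOS (1 without PCOS-MV replicate 3). Directions that turned belonged to genes that were not called: over the libraries left out, PCOS against Control ranged from -0.037 to 0.31 for Acly and from -0.066 to 0.38 for Elovl6, PCOS-MV against PCOS from -0.0027 to 0.049 for Acacb and from -0.31 to 0.053 for Fasn, and PCOS-MV against Control from -0.23 to 0.12 for Acly, from -0.71 to 0.094 for Scd and from -0.65 to 0.12 for Fads1. Over all genes, a 2-fold threshold left 436 of 1594 higher and 471 of 2090 lower in PCOS against Control, and 360 of 1918 higher and 391 of 1530 lower in PCOS-MV against PCOS. With libraries left out, the genes higher in PCOS-MV than in PCOS numbered 1272 (without PCOS replicate 4) to 1934. In PCOS-MV against Control, genes called higher numbered 1, or 0 with a mean of at least 5 FPKM, with 1 model for all 12 libraries or with the replicate number as a block, and 1 to 2 with a library left out. Genes called lower numbered 0, or 1 with 1 model for all 12 libraries, and 0 to 2 with a library left out. The cause of these changes was not tested. Same-numbered libraries did not reach a correlation over 0.1 in every pair of any comparison (r from -0.03 to 0.02, from 0.04 to 0.17 and from -0.05 to 0.22 in the 3 comparisons, with 0, 7 and 2 of 8 libraries nearest to their own number), and no label ties the numbers, so the samples were taken to share only a number. In PCOS-MV against PCOS 3 of 4 pairs were over 0.1, a hint of pairing from the data, and Fads1 was highest in replicate 1 and lowest in replicate 3 in all 3 groups. The block lowered the SE in PCOS-MV against PCOS from 0.48 to 0.13 for Fads1 and from 0.35 to 0.16 for Fads2. In PCOS against Control it did so as well, from 0.42 to 0.16 for Fads1 and from 0.27 to 0.097 for Fads2. There 0 of 8 libraries were nearest to their own number, so the lower SE of these genes does not by itself show pairing. With the replicate number as a block, 3 enzymes were higher and 1 lower in PCOS against Control, and 0 higher and 2 lower in PCOS-MV against PCOS, as without it. Depth is unknown, and 4 rats per group leave wide intervals for Scd, Fads1 and Elovl6.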

Other observations

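The PCOS-MV libraries spread widely for several lipid genes. Idh1 ranged there from 273 to 670.2 FPKM, Insig1 from 31.2 to 191 and Mid1ip1 from 22.1 to 82.0, while in PCOS Idh1 ranged from 89.5 to 123, Mid1ip1 from 38.9 to 55.5 and Insig1, as uneven there, from 29.0 to 124. The summed cholesterol synthesis list ranged from 580 to 1550 FPKM in PCOS-MV, from 420.5 to 1100 in PCOS and from 813 to 2061 in Control. In PCOS-MV replicates 1 to 4 it was at 1550, 666, 1470 and 580 FPKM, and Idh1 at 499, 273, 670.2 and 306. The summed luteal markers were at 6831, 2930, 6289 and 2915 FPKM in these libraries. Replicates 1 and 3 thus stood above replicates 2 and 4 for all 3, while Fads1 and Scd did not divide the libraries this way. Fads1 in PCOS-MV was highest in replicate 1 and lowest in replicate 3, and Scd was highest in replicate 3. The widest relative spread of any of the 10 genes was that of Scd in PCOS-MV, with an SD of 90.3% of the mean, and the narrowest was that of Acacb in PCOS, at 5.66%. No test was made of these differences between rats of 1 group.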
